A study of Homo sapiens with 6 samples.

Results

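The 9 genes described here are the core of insulin signaling from receptor to transcription factor: the receptors *INSR* and *IGF1R*, the adaptors *IRS1* and *IRS2*, the kinases *AKT1* and *AKT2*, and the transcription factors *FOXO1*, *FOXO3* and *FOXO4*. They were chosen by symbol, all 9 have a row among the 12499 genes of the deposited count table, and all 9 passed the filter on low counts that left 12462 genes for testing. The counts come from HaCaT cells, a single immortalized line of human keratinocytes. One group received LV-*ATF7*, a lentivirus meant to overexpress the transcription factor *ATF7*, and the other LV-NC, its negative control virus. After 48 hours of infection, both were held in high glucose for 24 hours, so no library shows these genes at normal glucose. Each group has 3 libraries of poly(A) RNA, and all come from this 1 cell line. Nothing in the labels says that the 3 came from separate cultures, so the p-values measure the spread between these libraries, which may be technical.

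Insulin and the insulin-like growth factors bind INSR and IGF1R, receptor tyrosine kinases that phosphorylate the adaptors IRS1 and IRS2. The adaptors recruit phosphatidylinositol 3-kinase (PI3K), whose lipid product brings AKT to the membrane, where AKT is activated. Active AKT phosphorylates the FOXO factors, which then leave the nucleus held by 14-3-3 proteins. When AKT is inactive, FOXO factors enter the nucleus and activate genes for cell cycle arrest, antioxidant defense, autophagy and, as feedback, the receptors and *IRS2*. In skin, this pathway acts in keratinocyte growth and migration and is disturbed in diabetic wounds. RNA levels do not show whether AKT or FOXO proteins were active.

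The targeted gene checks the labels. *ATF7* was at 50.6, 46.4 and 52.2 CPM (read counts scaled to library size with TMM factors) in the libraries labeled LV-NC and at 21.9, 25.7 and 27.98 CPM in those labeled LV-*ATF7*, so it was lower where it should have been overexpressed (log2 fold change -0.98, adjusted p = 1.89e-04). The labels and this gene therefore go against each other, and LV-*ATF7* and LV-NC stand below for libraries that carry those labels. Were the labels of the groups exchanged, every direction given here would turn, which was not tested. Of the exon bases of *ATF7*, 27.1% overlap genes on the opposite strand and 18.2% other genes on its own strand.

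By the labels, the 2 receptors, *IRS1*, *AKT2* and *FOXO4* were higher in the libraries labeled LV-*ATF7*, *IRS2* was lower, and *AKT1*, *FOXO1* and *FOXO3* did not pass the test. The largest difference was that of *IRS1*, whose mean was 4.99-fold higher, while *IRS2* was 1.88-fold lower. The 6 of 9 members that passed an adjusted p of 0.05 (quasi-likelihood test of edgeR, Benjamini-Hochberg adjustment over all genes tested) stand against 67.6% of all 12462 genes tested, so that share is close to the background and is no result about the members as a group. Of the 9, 5 were higher, against 34.7% of all genes tested, and 1 was lower, against 32.9%. With a fold of at least 1.5 asked for as well, 5 members passed, against 52.9% of all genes tested. The 3 libraries of each group did not overlap for 6 of the 9 members, against 72.7% of all genes tested.

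Total counts ran from 16686472 to 20562768 per library, and replicates differed by more than sampling noise. The library labeled LV-NC replicate 1 stood apart: its median absolute log2 difference from the mean of LV-NC replicates 2 and 3 was 0.31 over the genes tested, whereas replicates 2 and 3 differed from each other by 0.094. Of 7749 genes whose mean in LV-*ATF7* was at least 0.5 on the log2 scale away from the mean of LV-NC replicates 2 and 3, LV-NC replicate 1 lay past the midpoint toward LV-*ATF7* for 20.8%. It did so for 4 of the 6 members with such a gap, *FOXO4*, *INSR*, *IGF1R* and *IRS1*. The count of 4 rests on the cut-offs. Results of members, and counts of pathway roles, that this library moves are also given without it. *IRS1* was past the midpoint only narrowly, at 51.3% of its gap. *AKT1*, whose gap of -0.47 was too small to count, had this library at 113% of it. Without that library, 7 of 9 members passed, 5 higher and 2 lower, against 80.1% of the 12495 genes tested in that fit, and 6 passed with a fold of at least 1.5, against 56.5%.

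The labeled cell type was checked against marker lists. All 10 keratinocyte markers had counts, and their summed level was 1201 to 1827 CPM in LV-NC and 6128 to 6759 CPM in LV-*ATF7*. The markers did not run one way. *KRT5*, a keratin of basal cells that made up much of the sum in LV-*ATF7*, was at 99.96 to 355.5 CPM in LV-NC and 3215 to 3622 CPM in LV-*ATF7*. *TP63* was at 12.6 to 18.3 CPM in LV-NC and 219.0 to 238.1 CPM in LV-*ATF7*. *ITGB4* (254.8 to 326.0 and 1057 to 1201 CPM) and *SFN* (202.5 to 420.2 and 908.3 to 1025 CPM) were higher too. So were *COL17A1* (79.7 to 106.5 and 132.2 to 150.5 CPM) and *DSG3* (120.3 to 150.4 and 175.5 to 219.9 CPM), without overlap of the groups. *KRT14*, the partner of *KRT5*, was at 0.37, 12.5 and 11.3 CPM in LV-NC replicates 1, 2 and 3 and at 1.38 to 1.82 CPM in LV-*ATF7*. *KRT6A*, *KRT17* and *CDH1* were likewise lower in LV-*ATF7* than in LV-NC replicates 2 and 3, but not than in LV-NC replicate 1. That library was at 1.28 CPM for *KRT6A* and 2.89 CPM for *KRT17*, against 19.1 to 19.9 and 3.52 to 5.31 CPM in LV-*ATF7*. For *CDH1* it was at 319.4 CPM, against 319.2 to 338.8 CPM, so the groups overlapped for these genes. The fibroblast list had counts for 2 of 7 genes. Their sum was 33.1 to 42.7 CPM in LV-NC and 17.3 to 21.7 CPM in LV-*ATF7*, but they went opposite ways. *COL1A1* was at 33.1 to 41.1 CPM in LV-NC and 15.1 to 18.9 CPM in LV-*ATF7*. *DCN* was at 1.66, 0 and 0 CPM in LV-NC replicates 1, 2 and 3 and at 2.18 to 3.01 CPM in LV-*ATF7*. The leukocyte list had counts for 2 of 6 genes, summing to 3.93 to 4.93 and 7.54 to 10.3 CPM, and *PTPRC*, *CD68*, *CD163* and *LYZ* were not among the genes analysed. Of these 2, *CD14* was at 1.51 to 1.73 CPM in LV-NC and 7.09 to 9.57 CPM in LV-*ATF7*. *CSF1R* went the other way, from 2.20 to 3.32 CPM in LV-NC and from 0.447 to 0.774 CPM in LV-*ATF7*. The endothelial list had counts for 2 of 4 genes, summing to 1.12 to 5.50 and 84.6 to 89.9 CPM, of which *CDH5* gave 81.05 to 86.2 CPM in LV-*ATF7*, and the melanocyte list for 1 of 4, *PMEL*, at 1.87 to 2.20 and 3.42 to 6.03 CPM. The part of these differences in the members' results was not tested. In bulk RNA, fewer cells of a kind and less RNA per cell cannot be told apart.

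*IRS1* and *IRS2* are the adaptor pair that differs in opposite directions, so the 250 bases upstream of their starts are shown, as RefSeq gives them on GRCh38.p14. *IRS1* lies on the minus strand of chromosome 2, and its window is chr2:226799821-226800070. *IRS2* lies on the minus strand of chromosome 13, and its window is chr13:109786584-109786833. Capitals mark a match to TGTTTTG, the insulin response sequence that FOXO factors are known to bind in several insulin-repressed genes.
IRS1: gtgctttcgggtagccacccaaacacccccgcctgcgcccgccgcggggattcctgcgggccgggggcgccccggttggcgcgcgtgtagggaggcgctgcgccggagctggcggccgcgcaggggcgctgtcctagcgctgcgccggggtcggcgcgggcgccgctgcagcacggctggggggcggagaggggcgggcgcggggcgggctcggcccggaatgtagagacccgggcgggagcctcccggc
IRS2: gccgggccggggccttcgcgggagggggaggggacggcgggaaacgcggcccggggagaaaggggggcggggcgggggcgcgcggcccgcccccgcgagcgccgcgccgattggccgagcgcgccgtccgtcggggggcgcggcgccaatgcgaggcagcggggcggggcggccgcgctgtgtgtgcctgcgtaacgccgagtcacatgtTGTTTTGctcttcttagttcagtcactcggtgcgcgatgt
The match in *IRS2* starts 40 bases before the start site. TGTTTTG, read on either strand, is found in 4.30% of the 35116 promoter windows of this length. Both windows are rich in G and C, at 80.8% for *IRS1* and 76.4% for *IRS2*, against a median of 58.0% over all windows.

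The 9 members have 14 promoter windows in all, since *AKT1*, *AKT2* and *FOXO3* have more than a single listed start. TGACGTCA, the cAMP response element that ATF family proteins are known to bind, was searched on both strands and matched none of the 14, against 1.65% of all windows. TGACTCA, the AP-1 site, matched 1 window, that of an internal start of *FOXO3*, against 4.20% of all windows. TGTTTAC, a FOXO site, matched none, against 2.98%. None of these motifs shares its place with another in the member windows. A match describes the letters in the window and not binding.

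*INSR*, the insulin receptor gene (ENSG00000171105, chr19:7112255-7294034 on the minus strand, GRCh38), was at 26.4, 15.6 and 16.7 CPM in LV-NC replicates 1, 2 and 3 and at 30.1, 33.9 and 31.9 CPM in LV-*ATF7* replicates 1, 2 and 3. Every library labeled LV-*ATF7* was above every library labeled LV-NC, and LV-NC replicate 1 lay nearer to LV-*ATF7* than to the other control libraries. The means were 19.6 ± 5.93 and 31.98 ± 1.91 CPM (SD, n = 3 each), a log2 fold change of 0.71 (standard error 0.20, adjusted p = 0.0140). Without LV-NC replicate 1, the log2 fold change was 0.96 (adjusted p = 1.22e-08). *INSR* was past the threshold in 9 of 14 alternative fits, and leaving out LV-NC replicate 2 or 3 or LV-*ATF7* replicate 2 or 3 took the adjusted p to between 0.0502 and 0.0682.

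*IGF1R* encodes the type 1 insulin-like growth factor receptor, which shares ligands and downstream adaptors with the insulin receptor (ENSG00000140443, chr15:98648539-98964530 on the plus strand). It was at 182.9, 102.1 and 113.7 CPM in LV-NC replicates 1, 2 and 3 and at 208.4, 222.0 and 213.4 CPM in LV-*ATF7* replicates 1, 2 and 3. As for *INSR*, the groups did not overlap and LV-NC replicate 1 was the highest of the control libraries. The log2 fold change was 0.69 ± 0.20 (SE, adjusted p = 0.0166) with all libraries and 0.97 (adjusted p = 1.23e-11) without LV-NC replicate 1. It also passed in 9 of 14 alternative fits, and lost the call without LV-NC replicate 2 or 3 or LV-*ATF7* replicate 2 or 3 (adjusted p from 0.0502 to 0.0787).

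The 2 receptors kept nearly the same ratio in all 6 libraries. The level of *IGF1R* per kilobase was 4.90 to 5.19 times that of *INSR* in LV-NC and 4.90 to 5.18 times in LV-*ATF7*. Within a library, log2 CPM of *INSR* minus that of *IGF1R* was -2.75 ± 0.045 in LV-NC and -2.74 ± 0.040 in LV-*ATF7* (SD, n = 3 each), a difference of 0.0047 (exact permutation test, two-sided, p = 0.90, adjusted over 5 pairs 0.90). Over the 6 libraries, *IGF1R* was the member nearest to *INSR*, at a Euclidean distance of 0.085 between log2 CPM values centered on each gene's mean. Among the 11176 genes whose mean count was at least 50, 1 lay nearer to *INSR*, *FKBP9*, at 0.073.

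*IRS1* encodes the insulin receptor substrate best known from muscle and fat (ENSG00000169047, chr2:226731317-226799759 on the minus strand). Its raw counts were 67, 21 and 22 in LV-NC replicates 1, 2 and 3 and 171, 191 and 189 in LV-*ATF7* replicates 1, 2 and 3, or 3.59, 1.10 and 1.27 CPM against 9.55, 9.74 and 10.5 CPM. The gene was scarce in all 6 libraries, and the lowest library labeled LV-*ATF7* was still above the highest labeled LV-NC. The means were 1.99 ± 1.39 and 9.91 ± 0.478 CPM (SD, n = 3 each), a log2 fold change of 2.31 (standard error 0.40, adjusted p = 0.00112). Without LV-NC replicate 1 the mean in LV-*ATF7* was 8.35-fold that of LV-NC, against 4.99-fold with it, and the log2 fold change was 3.04 (adjusted p = 1.37e-12). The call held in all 14 alternative fits, with an adjusted p of at most 0.00959.

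*IRS2*, the adaptor that FOXO factors are known to activate in liver (ENSG00000185950, chr13:109752698-109786568 on the minus strand), went the other way. It was at 120.0, 108.2 and 126.9 CPM in LV-NC replicates 1, 2 and 3 and at 59.8, 60.8 and 67.9 CPM in LV-*ATF7* replicates 1, 2 and 3. The groups were far apart, and LV-NC replicate 1 lay between the other control libraries. The means were 118.4 ± 9.48 and 62.8 ± 4.38 CPM (SD, n = 3 each), and the log2 fold change of *IRS2* was -0.91, with a standard error of 0.10 (adjusted p = 1.15e-04). The log2 fold change ran from -1.08 to -0.88 in 14 alternative fits and was past the threshold in all of them. An antisense gene overlaps 1.41% of the exon bases of *IRS2*, and the strandedness of the counting is not stated.

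The ratio of *IRS2* to *IRS1* was lower in every library labeled LV-*ATF7* than in any labeled LV-NC. Per kilobase, *IRS2* was 40.9, 120.2 and 121.9 times as abundant as *IRS1* in LV-NC replicates 1, 2 and 3, and 7.67, 7.63 and 7.94 times in LV-*ATF7* replicates 1, 2 and 3. *IRS2* remained the more abundant adaptor in every library. The difference in log2 CPM, *IRS2* minus *IRS1*, was 6.01 ± 0.856 in LV-NC and 2.65 ± 0.032 in LV-*ATF7* (SD, n = 3 each), a difference of -3.36 (two-sided exact permutation test, p = 0.10, which is the lowest p that 3 libraries against 3 allow, and 0.167 after adjustment over 5 pairs).

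**Figure D1:**
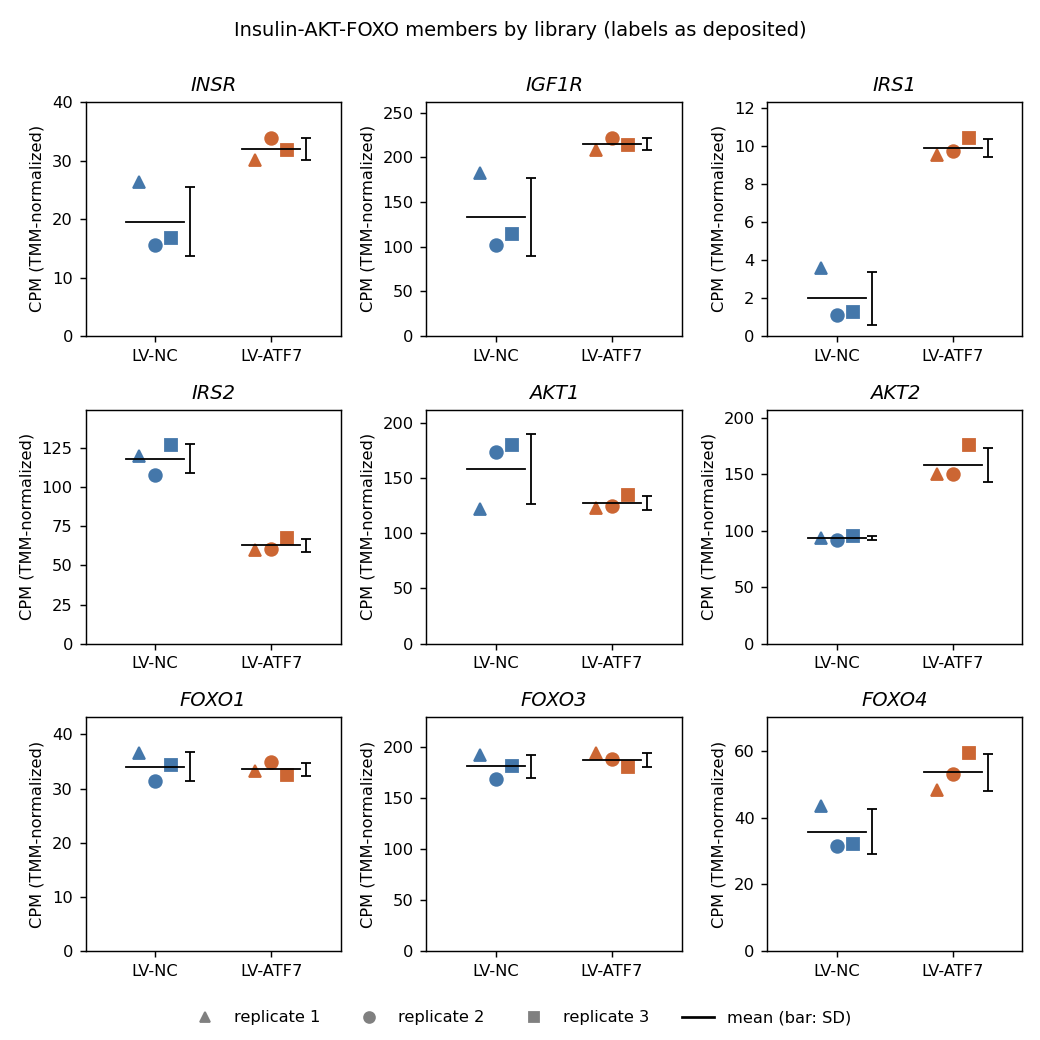
TMM-normalized CPM (vertical axes, starting at 0) of the 9 members in each library, by labeled group on the horizontal axes; symbols mark the replicate number, horizontal lines the mean and bars the SD of 3 libraries. LV-NC replicate 1 (triangles) lies toward the libraries labeled LV-ATF7 for INSR, IGF1R, IRS1, FOXO4 and AKT1, and with its own group for IRS2 and AKT2.

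*AKT1* encodes the most widely expressed AKT kinase (ENSG00000142208, chr14:104769349-104795751 on the minus strand). It was at 121.6, 173.7 and 179.6 CPM in LV-NC replicates 1, 2 and 3 and at 122.7, 124.5 and 134.4 CPM in LV-*ATF7* replicates 1, 2 and 3. The groups overlapped through LV-NC replicate 1 alone, which was the lowest of all 6 libraries. With all libraries the log2 fold change was -0.32 ± 0.15 (SE, adjusted p = 0.0939), which did not pass the test. Without LV-NC replicate 1, *AKT1* was lower in LV-*ATF7*, with a log2 fold change of -0.49 (adjusted p = 6.80e-07). In all, *AKT1* passed in 3 of 14 alternative fits, the other 2 being those with sample quality weights and with library size as the only scaling. The highest adjusted p over the 14 was 0.217. A gene on the opposite strand overlaps 5.94% of its exon bases.

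*AKT2*, the AKT kinase most tied to insulin-stimulated glucose uptake (ENSG00000105221, chr19:40230317-40285536 on the minus strand), was at 93.9, 91.5 and 95.6 CPM in LV-NC replicates 1, 2 and 3. It was at 149.9, 150.1 and 175.9 CPM in LV-*ATF7* replicates 1, 2 and 3. The control libraries were tight, LV-NC replicate 1 included, and all lay well below those labeled LV-*ATF7*. *AKT2* rose by a log2 fold change of 0.76 (standard error 0.096, adjusted p = 2.25e-04), or 1.69-fold, and its call held in all 14 alternative fits.

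The ratio of *AKT2* to *AKT1* was higher in every library labeled LV-*ATF7* than in any labeled LV-NC. The difference in log2 CPM, *AKT2* minus *AKT1*, was -0.37, -0.92 and -0.91 in LV-NC replicates 1, 2 and 3 and 0.29, 0.27 and 0.39 in LV-*ATF7* replicates 1, 2 and 3. The means differed by 1.05 (exact permutation test, two-sided, p = 0.10, adjusted over 5 pairs 0.167). Per kilobase of exons counted once, *AKT1* was the higher in all 6 libraries, 1.75 to 2.56 times *AKT2* in LV-NC and 1.03 to 1.12 times in LV-*ATF7*. This order depends on the length used. By the longest transcript, the means of *AKT1* and *AKT2* were 18.9 and 17.7 CPM per kilobase in LV-NC. In LV-*ATF7* they were 15.2 and 29.9, so there *AKT2* was the higher.

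**Figure D2:**
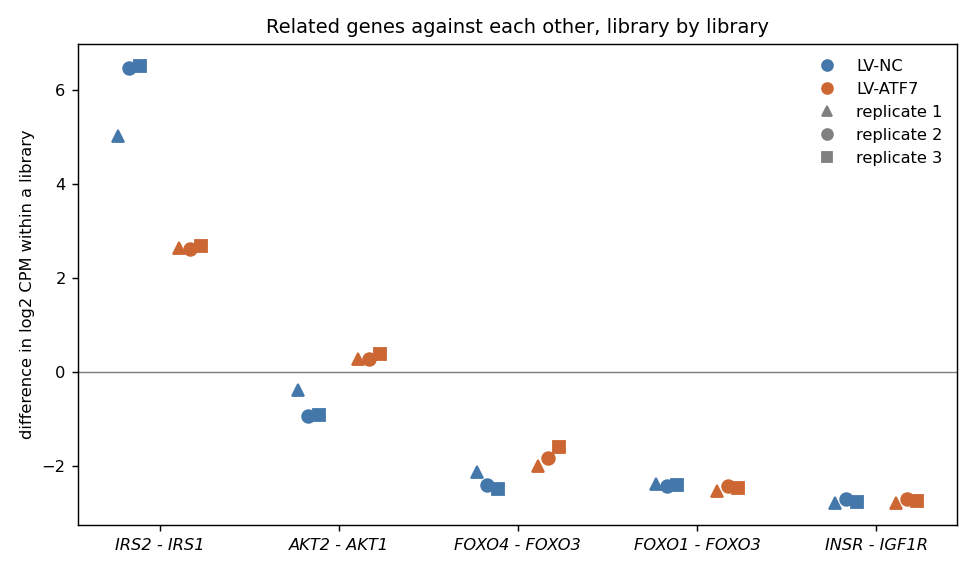
Difference in log2 CPM (prior count 2) between related genes within each library, by pair on the horizontal axis and with color for the labeled group and symbols for the replicate number. IRS2 minus IRS1, AKT2 minus AKT1 and FOXO4 minus FOXO3 do not overlap between the groups, whereas FOXO1 minus FOXO3 and INSR minus IGF1R do.

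*FOXO1* encodes the FOXO factor best known as the target of insulin in liver (ENSG00000150907, chr13:40469953-40666597 on the minus strand). It was at 36.6, 31.3 and 34.3 CPM in LV-NC replicates 1, 2 and 3 and at 33.2, 34.9 and 32.4 CPM in LV-*ATF7* replicates 1, 2 and 3. The libraries of the groups were intermingled. *LINC00598* shares 4.32% of its exon bases on the same strand. The log2 fold change was -0.023 ± 0.10 (SE, adjusted p = 0.858), which passed in none of 14 alternative fits, and its sign turned in 3 of them.

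*FOXO3*, the FOXO factor best known in stress resistance and autophagy (ENSG00000118689, chr6:108559835-108684774 on the plus strand), was the most abundant FOXO member per kilobase. It was at 191.6, 168.5 and 181.4 CPM in LV-NC replicates 1, 2 and 3 and at 193.8, 187.5 and 180.3 CPM in LV-*ATF7* replicates 1, 2 and 3. The groups overlapped, and the log2 fold change was 0.053 ± 0.088 (SE, adjusted p = 0.614). It passed in none of 14 alternative fits, and its sign turned in 2 of them.

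*FOXO3* shares sequence with *FOXO3B*, a near copy on chromosome 17 that GENCODE lists as a processed pseudogene: of the stretches of 100 bases in *FOXO3* transcripts, 17.5% also lie in transcripts of other genes, and 11.0% in *FOXO3B*. How reads that match both were counted is not stated, so their split is uncertain. *FOXO3B* was at 36.6, 27.2 and 31.4 CPM in LV-NC replicates 1, 2 and 3 and at 16.9, 17.2 and 16.9 CPM in LV-*ATF7* replicates 1, 2 and 3. Its log2 fold change was -0.90 (adjusted p = 5.59e-04). Its share of the 2 genes' summed CPM was 13.9% to 16.0% in LV-NC and 8.03% to 8.58% in LV-*ATF7*. The sum was 212.2 ± 16.3 and 204.2 ± 6.75 CPM (SD, n = 3 each), with a log2 fold change of -0.055 (standard error 0.092, adjusted p = 0.610), so *FOXO3* did not pass the test with or without the reads of *FOXO3B*.

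*FOXO4* (ENSG00000184481, chrX:71096197-71103535 on the plus strand), a FOXO factor known in muscle and in cell senescence, was at 43.5, 31.6 and 32.1 CPM in LV-NC replicates 1, 2 and 3. It was at 48.2, 52.9 and 59.3 CPM in LV-*ATF7* replicates 1, 2 and 3. The groups did not overlap, and LV-NC replicate 1 was the control library nearest to the other group. *FOXO4* rose by a log2 fold change of 0.58 (standard error 0.15, adjusted p = 0.00911), and by 0.73 (adjusted p = 1.92e-07) without LV-NC replicate 1. It passed in 12 of 14 alternative fits and missed the threshold with library size as the only scaling (adjusted p = 0.0530) and without LV-NC replicate 3 (adjusted p = 0.0505).

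Against *FOXO3*, *FOXO4* was higher in every library labeled LV-*ATF7* than in any labeled LV-NC: log2 CPM of *FOXO4* minus *FOXO3* was -2.35 ± 0.187 in LV-NC and -1.81 ± 0.201 in LV-*ATF7* (SD, n = 3 each; difference 0.54, exact permutation test, two-sided, p = 0.10, adjusted over 5 pairs 0.167). For *FOXO1* minus *FOXO3* the values were -2.40 ± 0.019 and -2.48 ± 0.060 (difference -0.074, p = 0.20 by the same exact test, adjusted 0.25), and the groups overlapped.

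**Figure D3:**
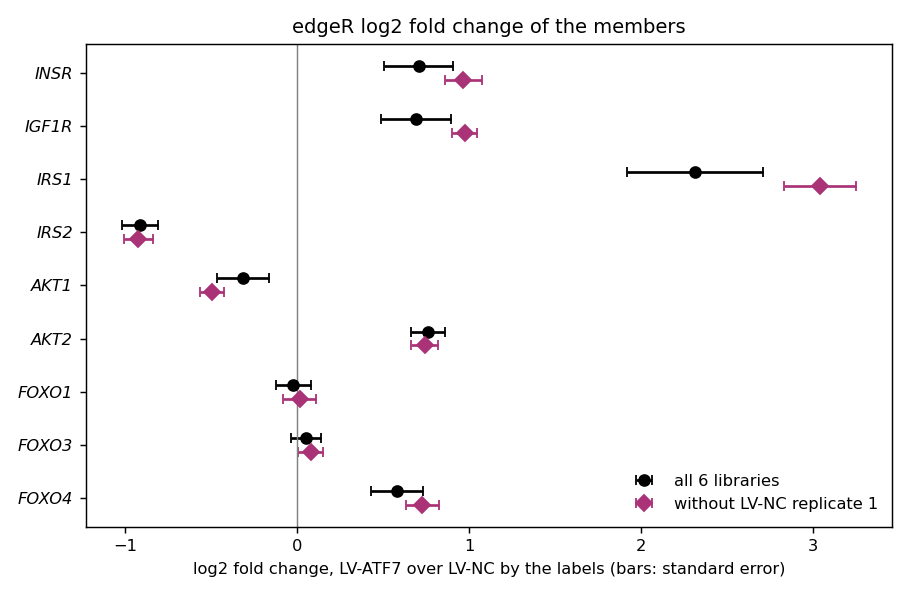
Log2 fold change (horizontal axis, positive where the libraries labeled LV-ATF7 are higher) from edgeR for each of the 9 members, with all 6 libraries (circles) and without LV-NC replicate 1 (diamonds); bars are standard errors. The values move away from 0 without that library for INSR, IGF1R, IRS1, AKT1 and FOXO4, and stay near 0 for FOXO1 and FOXO3.

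Levels of different genes were compared as CPM per kilobase of exons counted once (means ± SD of 3 libraries). In LV-NC the order was *FOXO3* (23.4 ± 1.502), *IRS2* (14.5 ± 1.16), *AKT1* (14.2 ± 2.86), *FOXO4* (10.4 ± 1.95), *IGF1R* (9.53 ± 3.13), *AKT2* (6.23 ± 0.135), *FOXO1* (5.46 ± 0.424), *INSR* (1.87 ± 0.567) and *IRS1* (0.200 ± 0.139). The libraries of *IRS2* and *AKT1*, of *AKT1* and *FOXO4*, and of *FOXO4* and *IGF1R* overlapped, so these neighbors did not differ beyond their spread. In LV-*ATF7* the order was *FOXO3* (24.2 ± 0.873), *FOXO4* (15.5 ± 1.62), *IGF1R* (15.4 ± 0.496), *AKT1* (11.4 ± 0.565), *AKT2* (10.5 ± 0.993), *IRS2* (7.72 ± 0.539), *FOXO1* (5.38 ± 0.206), *INSR* (3.06 ± 0.182) and *IRS1* (0.996 ± 0.048). There, *FOXO4* overlapped *IGF1R*, and *AKT1* overlapped *AKT2*. *IRS2* took place 2 in LV-NC and place 6 in LV-*ATF7*, while *FOXO3* was first and *IRS1* last in both. By the deposited FPKM, which rest on the authors' own gene lengths, *IRS2* took places 1 and 3, *AKT1* places 6 and 7 and *FOXO1* places 4 and 5 in LV-NC and LV-*ATF7*, and *AKT2* stood above *AKT1* in LV-*ATF7*. In LV-NC, *AKT1* was at 2.88 FPKM against 14.2 CPM per kilobase, and *IRS2* at 15.4 against 14.5. The FPKM thus take a far longer length for *AKT1* than its exons counted once, which limits that order.

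The place of *AKT2* depends on its length. Its annotated exons span 15035 bases counted once, and its longest transcript has 5300 bases, by which its level was 17.7 and 29.9 CPM per kilobase in LV-NC and LV-*ATF7*, places 3 and 1. The median over all genes tested was 6.19 CPM per kilobase in LV-NC and 6.40 in LV-*ATF7*. *FOXO3* stood at or above 83.1% and 84.0% of the genes tested in the respective groups, and *IRS1* at or above 4.80% and 15.1%.

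**Figure D4:**
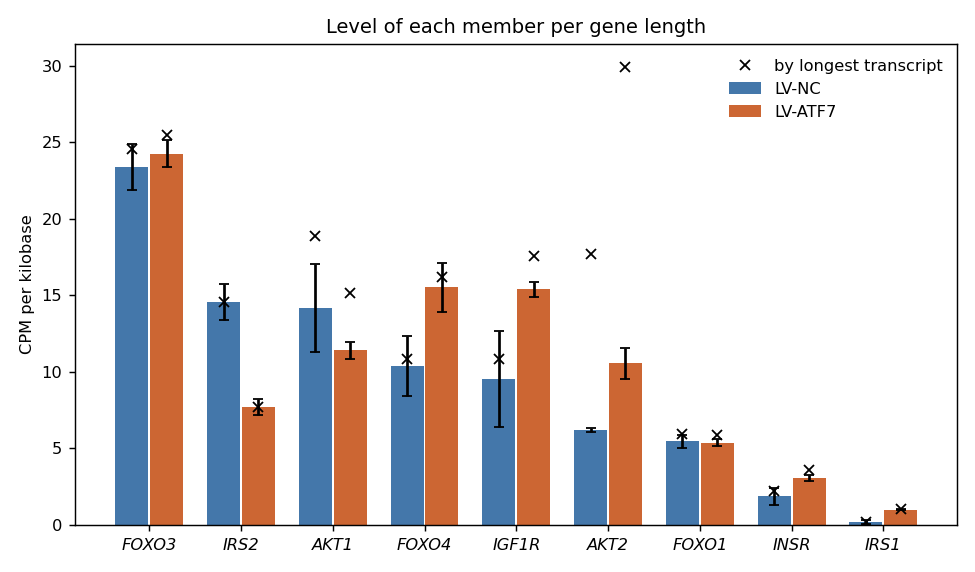
Level of each member in CPM per kilobase of exons counted once (vertical axis; bars are means and error bars the SD of 3 libraries) by labeled group, in the order of LV-NC; crosses give the mean by the longest annotated transcript. FOXO3 is the highest bar in both groups and IRS1 the lowest, and the crosses of AKT2 stand far above its bars.

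For each member, the gene with the most similar values over the 6 libraries was sought by the same Euclidean distance among the 11176 genes. These were *ADAM17* for *FOXO1* (0.059), *KBTBD7* for *FOXO3* (0.054), *YIF1A* for *FOXO4* (0.092), *GP1BA* for *IGF1R* (0.060), *SH3BP5* for *IRS2* (0.062), *ZC3HC1* for *AKT1* (0.057), *THAP4* for *AKT2* (0.091) and *LYPD2* for *IRS1* (0.24). The distances of *IRS1* and *IRS2* to their nearest member were 2.19 (*IGF1R*) and 0.90 (*AKT1*), with 1890 and 3460 genes nearer.

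Beyond the 9 members, 111 genes of the pathway were listed by role, of which 97 were tested and 14 were not analysed here: *ENPP1*, *IGF1*, *IGF2*, *INSRR*, *IGFBP1*, *IGFBP2*, *IGFBP5*, *PIK3R2*, *PIK3AP1*, *TRIM63*, *PDK4*, *PCK1*, *G6PC1* and *FASLG*. Of the 97, 35 were higher and 38 lower at an adjusted p under 0.05, and 24 did not pass. Together 75.3% passed, against 67.6% of all genes tested, and the median log2 fold change was 0.039, against 1.62e-04 over all genes. The counts of each role below stand beside 34.7% higher and 32.9% lower over all genes tested. Counts given without LV-NC replicate 1 stand beside 39.9% higher and 40.2% lower of all genes tested in that fit. The keratinocyte and endothelial marker sums given above also differed between the groups, and their part in these lists was not tested. Values below are means ± SD of CPM in LV-NC and LV-*ATF7* (n = 3 each) or log2 fold changes (positive where LV-*ATF7* was higher), with edgeR's adjusted p.

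Among 10 adaptors and receptor modulators tested, 4 were higher and 3 lower (median log2 fold change 0.29). *GRB2*, the adaptor that links receptors to RAS, fell from 426.1 ± 50.4 to 184.4 ± 8.77 CPM (-1.21, adjusted p = 4.56e-05). *PTPN1*, a phosphatase that removes phosphate from the insulin receptor, fell from 214.6 ± 10.9 to 104.2 ± 5.04 CPM (-1.04, adjusted p = 2.71e-05). *SH2B2*, an adaptor of the insulin receptor, rose from 13.9 ± 1.71 to 26.6 ± 1.06 CPM (0.94, adjusted p = 3.72e-04).

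The insulin-like growth factor binding proteins hold the growth factors outside cells. Of the 4 tested, 3 were higher and none lower, against 34.7% higher and 32.9% lower of all genes tested. *IGFBP3* rose from 358.5 ± 23.6 to 2666 ± 135 CPM (2.89, adjusted p = 1.27e-06), *IGFBP4* from 1.41 ± 0.621 to 32.3 ± 1.81 CPM (4.51, adjusted p = 6.43e-06) and *IGFBP7* from 10.4 ± 1.003 to 63.2 ± 2.12 CPM (2.60, adjusted p = 1.66e-06). The last of the 4, *IGFBP6*, was at 40.4, 240.7 and 241.2 CPM in LV-NC replicates 1, 2 and 3 and at 181.5 ± 14.6 CPM in LV-*ATF7*, and did not pass (0.060, adjusted p = 0.928). Without LV-NC replicate 1 it was lower in LV-*ATF7* (-0.43, adjusted p = 5.23e-06).

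Among 8 PI3K genes, 3 were higher, 1 was lower and 4 did not pass. The catalytic subunits *PIK3CA*, *PIK3CB* and *PIK3CD* were among those 4, with log2 fold changes from 0.039 to 0.10. Without LV-NC replicate 1, *PIK3CA* was higher (0.37, edgeR adjusted p = 0.00436), while *PIK3CB* (0.19) and *PIK3CD* (-0.088) did not pass. In that fit 5 of the 8 were higher and 1 was lower. *PIK3R1*, the main regulatory subunit, fell from 121.1 ± 10.1 to 41.2 ± 3.89 CPM (-1.55, adjusted p = 1.30e-05), and *PIK3R3*, another regulatory subunit, rose from 71.1 ± 9.61 to 171.2 ± 4.14 CPM (1.27, adjusted p = 4.05e-05). *PIK3IP1*, an inhibitor of PI3K at the membrane, rose from 13.4 ± 7.87 to 75.3 ± 5.69 CPM (2.49, adjusted p = 3.79e-04).

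The phosphatases that remove the PI3K lipid or dephosphorylate AKT, with the AKT-binding tribbles proteins, gave 5 higher and 5 lower of 11. Without LV-NC replicate 1 they gave 6 higher and 5 lower. *TRIB2*, a pseudokinase, rose from 9.64 ± 2.63 to 48.3 ± 1.68 CPM (2.32, adjusted p = 2.27e-05) and the lipid phosphatase *INPPL1* from 128.5 ± 41.5 to 382.6 ± 23.2 CPM (1.57, adjusted p = 2.78e-04). *INPP5K*, another lipid phosphatase, fell from 144.7 ± 7.21 to 56.2 ± 2.58 CPM (-1.36, adjusted p = 8.90e-06). The far right point of this role in the plot by role is *INPP5D*, a lipid phosphatase known from blood cells, which had a mean count below 50 and is named after its values were seen: it was at 0, 0.105 and 0 CPM in LV-NC replicates 1, 2 and 3 and at 3.09 ± 0.918 CPM in LV-*ATF7*. Of the 7 tested kinases and activators around AKT, 2 were higher and 3 lower. *PDPK1*, the kinase that phosphorylates the activation loop of AKT, fell from 137.2 ± 6.44 to 56.0 ± 2.04 CPM (-1.29, adjusted p = 1.01e-05), and *MTOR*, the kinase of both mTOR complexes, from 215.9 ± 16.4 to 123.4 ± 3.44 CPM (-0.81, adjusted p = 1.19e-04).

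In the mTORC1 branch, which ties AKT to protein synthesis, 3 of 10 were higher and 3 lower. Leaving out LV-NC replicate 1 gave 3 higher and 6 lower. *DEPTOR*, an inhibitor of mTOR, rose from 2.70 ± 0.169 to 8.04 ± 1.08 CPM (1.57, adjusted p = 1.27e-04). The translation repressors split: *EIF4EBP1* rose from 52.2 ± 15.2 to 115.4 ± 7.49 CPM (1.14, adjusted p = 9.45e-04), and *EIF4EBP2* fell from 411.5 ± 23.6 to 188.5 ± 11.4 CPM (-1.13, adjusted p = 2.72e-05). Among 7 other AKT substrates, 4 were higher and 2 lower, or 4 and 3 without LV-NC replicate 1. *TBC1D1*, a regulator of glucose transporter traffic, rose (1.99, adjusted p = 5.92e-05), as did *FOXK1*, a forkhead factor (1.46, adjusted p = 8.89e-06), while *BAD*, a BCL2 family member that promotes cell death, fell (-0.76, adjusted p = 0.0103).

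Of 15 modifiers and cofactors of FOXO, 6 were higher and 6 lower. The deacetylases *SIRT1* and *SIRT2*, which act on FOXO proteins, had log2 fold changes of -1.43 (adjusted p = 1.23e-05) and -1.72 (adjusted p = 1.47e-05). *PRMT1*, the methyltransferase that modifies FOXO1 next to an AKT site, rose from 105.0 ± 7.63 to 322.6 ± 18.3 CPM (1.62, adjusted p = 6.13e-06). *FOXO6*, another FOXO gene, had a log2 fold change of 0.44 and did not pass (adjusted p = 0.0624).

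Genes known from other systems as FOXO targets were lower more often than higher: of 25 tested, 15 were lower, 5 higher and 5 did not pass, against 32.9% lower and 34.7% higher over all genes tested. Their median log2 fold change was -0.71, against 1.62e-04 over all genes tested. Without LV-NC replicate 1, 15 were lower and 6 higher, against 40.2% and 39.9% of all genes tested in that fit, with a median of -0.58. This list was written with earlier results of these data known and was given no test. The 3 largest differences among targets with a mean count of at least 50 were in *TNFSF10*, a death ligand, which rose from 15.1 ± 7.94 to 393.5 ± 25.7 CPM (4.70, adjusted p = 1.51e-05), *KLF2*, a transcription factor, which fell from 5.19 ± 0.318 to 0.640 ± 0.351 CPM (-3.02, adjusted p = 1.67e-04), and *SOD2*, the mitochondrial superoxide dismutase, which rose from 125.2 ± 8.50 to 953.4 ± 48.0 CPM (2.93, adjusted p = 9.77e-07).

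The 5 higher targets were *TNFSF10* and *SOD2*, given above, and *FBXO32*, *RBL2* and *BCL6*. The last 3 had log2 fold changes of 1.99 (adjusted p = 2.14e-05), 1.83 (adjusted p = 6.72e-06) and 0.73 (adjusted p = 1.80e-04). The 15 lower targets include cell cycle, stress and autophagy genes, and those named next were chosen after their values were seen. *CDKN1A*, the cyclin-dependent kinase inhibitor p21, fell from 842.2 ± 17.1 to 163.1 ± 15.7 CPM (-2.37, adjusted p = 1.89e-06), and *CDKN1B*, encoding p27, from 98.9 ± 13.6 to 55.2 ± 2.22 CPM (-0.84, adjusted p = 4.04e-04). *GADD45B*, a stress response gene, fell (-2.60, adjusted p = 1.36e-05), as did *BCL2L11*, encoding the death-promoting protein BIM (-1.49, adjusted p = 2.72e-05). The autophagy genes *ULK1* (-1.99), *MAP1LC3B* (-1.80), *GABARAPL1* (-1.06) and *ATG12* (-0.71) were lower, with adjusted p of at most 0.00221. *TXNIP*, a target that also responds to glucose, was at 467.6, 208.7 and 217.6 CPM in LV-NC replicates 1, 2 and 3 and at 236.9 ± 16.0 CPM in LV-*ATF7*, and did not pass (-0.33, adjusted p = 0.340). Without LV-NC replicate 1 its sign turned, and it did not pass either (0.13, edgeR adjusted p = 0.0868).

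**Figure D5:**
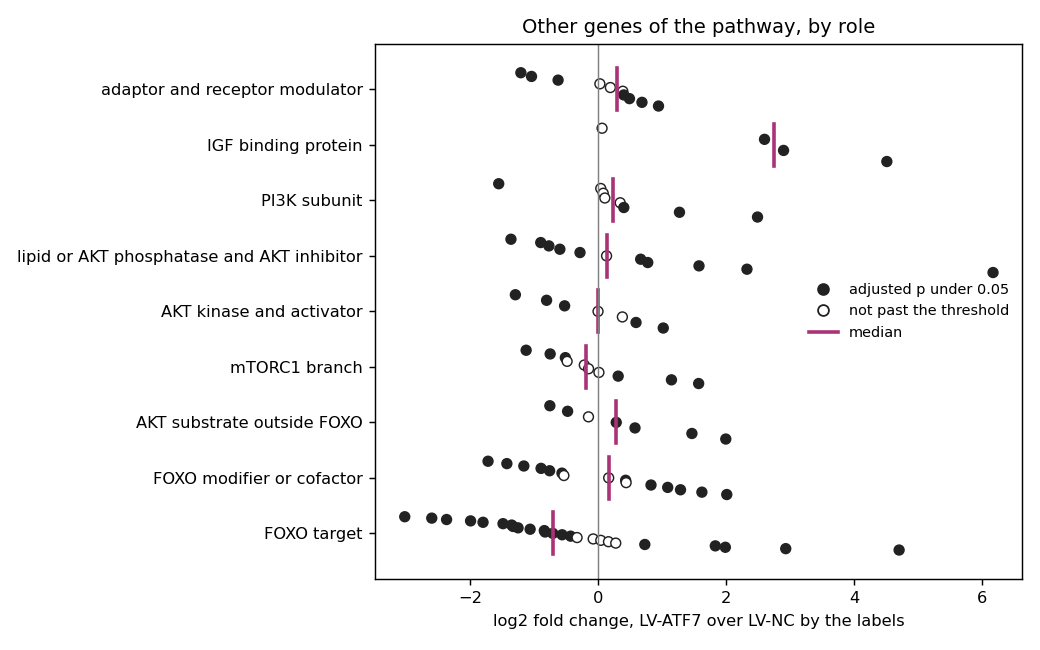
Log2 fold change (horizontal axis, positive where the libraries labeled LV-ATF7 are higher) of the 97 other pathway genes tested, by role; filled points have an adjusted p under 0.05, open points do not, and the vertical strokes mark the median of each role. Most FOXO targets lie to the left of 0, with a median of -0.71, and 3 of 4 IGF binding proteins lie far to the right.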

How the data were processed

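Poly(A) RNA of HaCaT cells was captured on oligo(dT) beads, copied into cDNA and read on an Illumina NovaSeq. The deposited table gives raw counts per gene, with no normalization by the authors, and the authors' FPKM values. FPKM values were used only to order genes by level as an alternative. The deposited table also holds the authors' own fold (ratio), log2 fold change, p-value and adjusted p-value columns, which were not used. The genome build is GRCh38 per the labels; the aligner, counting program, annotation and strandedness are not given in the sources used here. Positions and lengths come from GENCODE release 29, in which 12485 gene identifiers were found, and promoter sequences are from RefSeq.

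Samples were grouped by title. TMM scaling and the tests (glmQLFit, glmQLFTest) used edgeR 4.0.16 in R 4.3.3 on the 12462 genes that passed filterByExpr, without covariates and with Benjamini-Hochberg adjustment at 0.05. The standard error is the log2 fold change divided by the square root of F. Pairs of related genes were compared on log2 CPM (prior count 2) by an exact permutation test over libraries. The table holds no gene with fewer than 51 counts in all. In each role, the 3 pathway genes with the largest change among those past the threshold with a mean of at least 50 counts are named. A gene that this rule would name is not reported here. The members and lists were chosen with earlier results of these data known. Alternatives were DESeq2 1.42.0, limma 3.58.1 voom with sample quality weights, 3 other scalings, 2 other filters, a replicate block and each library left out in turn. Alternatives planned for a table without counts were not needed. The pipeline was tested on simulated data in which 200 of 12462 genes were changed. It called 139 of these, and 2.80% of its calls were unchanged genes. In the real data 67.6% of genes passed, so the simulation does not test the scaling where most genes differ.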

Additional observations from a re-analysis of the deposited data

How the results depend on the processing

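*IRS1*, *IRS2* and *AKT2* stayed past the threshold, in the same direction, in all 14 alternative fits. With library size as the only scaling, the median over all genes moved by -0.16 on the log2 scale and 42.4% of calls were higher in LV-*ATF7*, against 51.3% with TMM. There, *FOXO4* (0.41), *INSR* (0.53) and *IGF1R* (0.52) lost the threshold, *AKT1* passed it (-0.47) and *FOXO3* turned (-0.11). Relative to that median, an alternative chosen after the data were seen, every member had the sign it had with TMM. TMM itself put the median near 0 (1.62e-04), so taking the median off nearly gives the TMM values back. The match in sign is therefore no separate support for the directions. With sample quality weights, *AKT1* passed (-0.49) and *FOXO1* turned (0.055). *FOXO3* turned when the counts of *FOXO3B* were added, also chosen after the data were seen (-0.055). The cause was not tested.

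Across the 6 fits that each left out 1 library, from 3 to 7 members passed, the fewest without LV-NC replicate 3 and the most without LV-NC replicate 1. The log2 fold change ran from 0.53 to 0.96 for *INSR*, from 0.49 to 0.97 for *IGF1R*, from 0.46 to 0.73 for *FOXO4*, from -0.49 to -0.25 for *AKT1*, from -0.12 to 0.014 for *FOXO1* and from -0.030 to 0.080 for *FOXO3*. *INSR* and *IGF1R* lost the threshold in 4 of these fits each and *FOXO4* in 1, and *AKT1* passed in 1. The difference of *INSR* minus *IGF1R* between the groups ran from -0.015 to 0.029. A fit with a single group of 2 libraries assumes that group to vary like the other.

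Shared replicate numbers did not meet the mark for pairing, a correlation above 0.1 for each number: after the group means were subtracted, libraries of numbers 1, 2 and 3 correlated at 0.058, -0.021 and 0.065, and libraries numbered 1 and 3, but not 2, correlated best with their own number in the other group. These numbers are those of the sample titles. The library name of LV-NC replicate 3 carries a different number, so the match for number 3 rests on the titles alone. In a fit with a replicate block, 8210 genes passed, against 8429 without it, and 6 members in both cases. With DESeq2, 8447 genes and 6 members passed. *IRS1* had 21 to 67 counts in LV-NC, and its fold was 8.35 without LV-NC replicate 1, against 4.99 with it.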
